A study of Mus musculus with 24 samples.

Results

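Transfer RNA fragments were compared between Tet2 knockout and E14 mouse embryonic stem cells in the second of the study's small RNA sequencing experiments. All rows of the tRNA fragment count table were taken, with the 3 knockout and 3 E14 libraries of experiment 2, which are 6 of the 24 samples of the series. The table held 1305 rows, 1 for each of 435 tRNA genes and 3 fragment kinds named tRF5, tRF3a and tRF3b. These rows were also summed by the amino acid and anticodon in the gene name, over 52 anticodons, which gave 156 sums. Of the 1305 rows, 178 had no count in any of the 6 libraries, and 150 of the 156 sums had at least 1 count.

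TET2 is a dioxygenase that oxidises 5-methylcytosine in DNA, and it has also been found to act on methylated cytosines in RNA, where tRNAs are among the most heavily modified molecules. Fragments of tRNA arise when nucleases cut a mature tRNA or its precursor. In the usual naming, tRF-5 fragments begin at the 5′ end of the mature tRNA and tRF-3 fragments end at its 3′ end, with type a shorter than type b. The definition applied to this table is not given in the sources used here. Embryonic stem cells contain many tRNA fragments, and those from 3′ ends can be complementary to the primer binding sites of endogenous retroviruses.

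The E14 group was the E14 mouse embryonic stem cell line without a Tet2 mutation, and the other group was Tet2 knockout embryonic stem cells, with 3 biological replicates each. Neither group was treated, and both carried the same mixed B6 and 129 strain label. Both were grown with leukaemia inhibitory factor and with the kinase inhibitors CHIR99021 at 3 µM and PD0325901 at 1 µM. RNA of 14 to 38 nt was selected on a gel, so whole tRNAs and long fragments were outside the range. The labels do not name the line from which this knockout set was made, so an effect of the Tet2 deletion and a difference between cell lines cannot be told apart. Neither Tet2 nor any stem cell marker is a feature of the fragment table, and neither the genotype nor the cell type could be checked in it.

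The E14 libraries held 122129, 148719 and 110313 tRNA fragment counts, and the knockout libraries held 173450, 130477 and 143917. Between libraries of the same group, the chi-square divided by its degrees of freedom was 1.70 to 4.95, so each pair differed beyond counting noise and none looked like 1 library deposited again. Levels below are in CPM, the count scaled to a fixed total of tRNA fragment counts per library and adjusted by the trimmed mean of M-values (TMM), so they are relative to the other tRNA fragments and not to the whole small RNA library. Fewer tRNA fragments per cell and a smaller share of tRNA fragments in the RNA therefore cannot be told apart here.

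The share of tRF3a was higher in the knockout libraries, but no kind's share had an exact permutation p under 0.05. The share of tRF3a among all tRNA fragment counts was 15.3%, 12.3% and 12.1% in the E14 libraries and 19.2%, 20.4% and 15.8% in the knockout libraries. Every knockout library was above every E14 library, although knockout replicate 3 and E14 replicate 1 were close together. The means were 13.2% ± 1.80 (SD, n = 3) and 18.5% ± 2.39 (SD, n = 3), a difference of 5.22 percentage points with an exact two-sided permutation p of 0.1, the smallest that 3 against 3 libraries allow. The share of tRF5 was 81.4%, 85.7% and 85.5% in E14 and 78.1%, 76.0% and 81.8% in the knockout. The groups overlapped, since knockout replicate 3 was above E14 replicate 1, and the means of 84.2% ± 2.44 and 78.6% ± 2.93 (SD, n = 3) did not differ past the test (exact permutation p = 0.2). The share of tRF3b was 3.33%, 2.06% and 2.37% in E14 and 2.74%, 3.58% and 2.40% in the knockout. These groups also overlapped, with means of 2.59% and 2.91% (exact permutation p = 0.5). Without knockout replicate 2 the difference for tRF3b changed sign, to -0.017 percentage points.

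**Figure D1:**
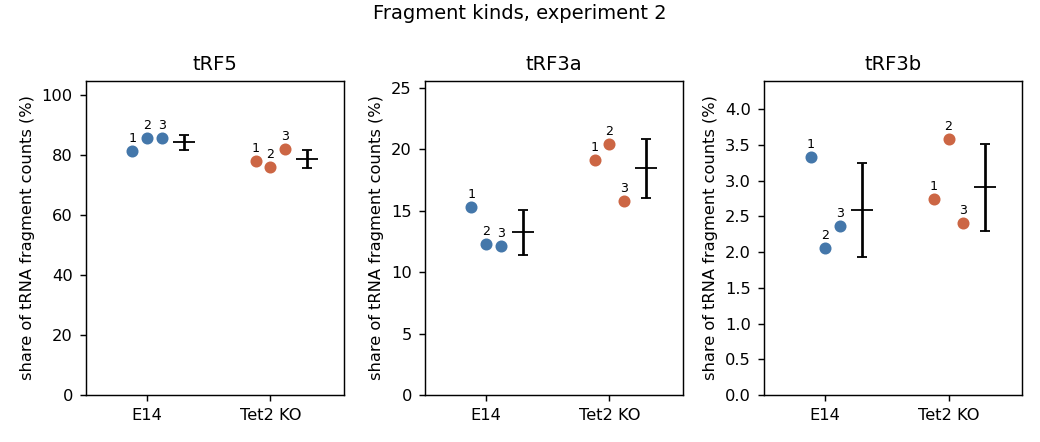
Share of each fragment kind among all tRNA fragment counts (%, vertical axes from 0) in the 3 E14 and 3 Tet2 knockout libraries, with replicate numbers above the points and the mean ± SD beside them. The tRF3a points do not overlap between the groups (12.1% to 15.3% against 15.8% to 20.4%), while those of tRF5 and tRF3b do.

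The anticodon sums, which are drawn from the same counts, also split by kind. Of 123 anticodon sums tested with edgeR's quasi-likelihood test, 8 rose in the knockout (6.5% of those tested) and 6 fell (4.88%) at an adjusted p under 0.05. Of the 8 that rose, 7 were tRF3a sums, out of 43 tested, and none of the tRF3a sums fell. GluCTC tRF3a, 1 of the 7, passed the count filter only through the knockout libraries, where it was high. ProTGG and ProAGG are also among the 7. Their gene rows agreed within counting noise in experiment 2, so these sums are not separate observations. All 6 that fell were tRF5 sums, out of 45 tested, with 1 tRF5 sum higher. No call was made among 35 tRF3b sums. At an unadjusted p under 0.05, 16 sums were higher and 17 lower. The median log2 change was -0.25 for tRF5, 0.12 for tRF3a and -0.10 for tRF3b, beside -0.02 for all 123 sums.

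**Figure D2:**
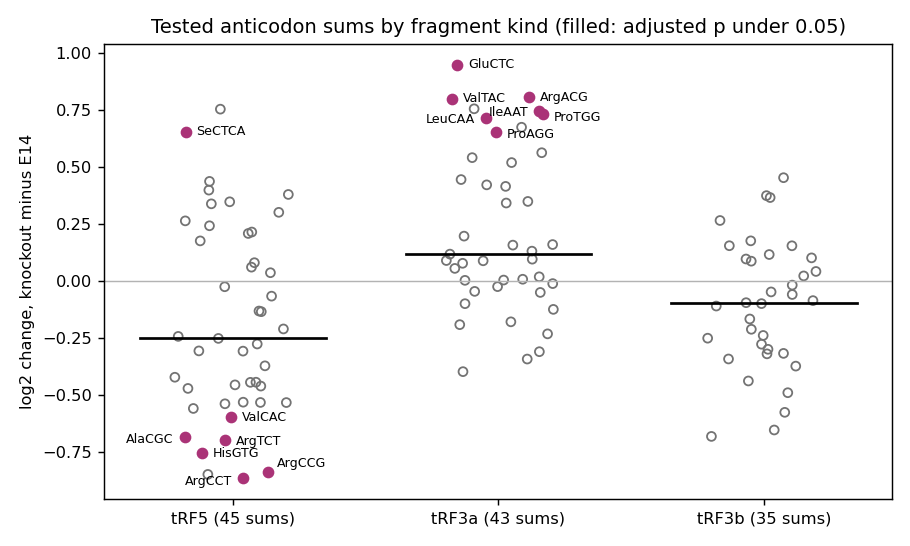
Log2 change of each tested anticodon sum, knockout minus E14 (vertical axis), by fragment kind, with called sums filled and named and black lines at the medians. The called tRF3a sums all lie above 0 and the called tRF5 sums below it, other than SeCTCA at 0.66.

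Among the tRF3a sums, those of ArgACG, IleAAT, LeuCAA, ValTAC, GluCTC and the proline anticodons ProTGG and ProAGG rose. LeuCAA, the leucine tRNA whose wobble cytosine is methylated by NSUN2, was the most abundant of them. Its tRF3a sum stood at 6309.1, 8878.3 and 10074.0 CPM in E14 and at 15490.0, 11930.5 and 14053.4 CPM in the knockout. The groups did not overlap, and E14 replicate 1 was the lowest library and knockout replicate 1 the highest. The log2 change was 0.72 (SE 0.20, adjusted p = 0.0321). LeuCAA fragments of all kinds made up 0.876%, 0.882% and 1.08% of the counts in E14 and 1.95%, 1.75% and 1.59% in the knockout.

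ArgACG, an arginine tRNA read with inosine at its wobble position, had tRF3a levels of 2226.7, 2987.3 and 3013.9 CPM in E14 and 4952.6, 4638.9 and 4786.3 CPM in the knockout. The knockout libraries lay close together and well above the E14 libraries, a log2 change of 0.81 (SE 0.18, adjusted p = 0.0321). IleAAT, an isoleucine tRNA that also carries inosine there, had tRF3a levels of 2279.8, 2409.9 and 1762.4 CPM in E14 and 4035.8, 3904.2 and 2897.3 CPM in the knockout (log2 change 0.75, SE 0.20, adjusted p = 0.0321). ValTAC tRF3a was at 1113.4, 1656.8 and 1470.4 CPM in E14 and at 2955.7, 2260.3 and 2151.7 CPM in the knockout (log2 change 0.80, SE 0.22, adjusted p = 0.0321). Neither sum overlapped between the groups. The other valine anticodons did not move with ValTAC, since the 2 most abundant tRF3a sums, ValCAC and ValAAC, had log2 changes of 0.00 and 0.01 (adjusted p = 0.988 and 0.979).

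The proline tRNAs are the primers of several murine retroviruses. ProTGG tRF3a measured 2575.1, 3104.5 and 2596.7 CPM in E14 and 5337.2, 4340.1 and 4097.4 CPM in the knockout (log2 change 0.74, SE 0.18, adjusted p = 0.0321). ProAGG tRF3a measured 2999.3, 3824.1 and 3337.2 CPM in E14 and 6159.1, 5162.0 and 4651.3 CPM in the knockout (log2 change 0.65, SE 0.18, adjusted p = 0.0328). In both sums each knockout library exceeded each E14 library. ProCGG tRF3a had 1348.2, 2033.4 and 1918.9 CPM in E14 against 3019.0, 2478.3 and 2315.0 CPM in the knockout and did not pass the test (log2 change 0.56, adjusted p = 0.109). GluCTC tRF3a was far rarer, at 83.3, 75.3 and 52.1 CPM in E14 and 115.9, 155.7 and 149.1 CPM in the knockout. Its log2 change of 0.95 had the widest error of the 8 that rose (SE 0.29, adjusted p = 0.0494). Its counts were 11, 9 and 5 in E14 and 22, 25 and 21 in the knockout. This sum passed the count filter only through the knockout libraries, where it was high, so its test gives no support. It stayed past the threshold in 2 of 12 alternative runs.

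**Figure D3:**
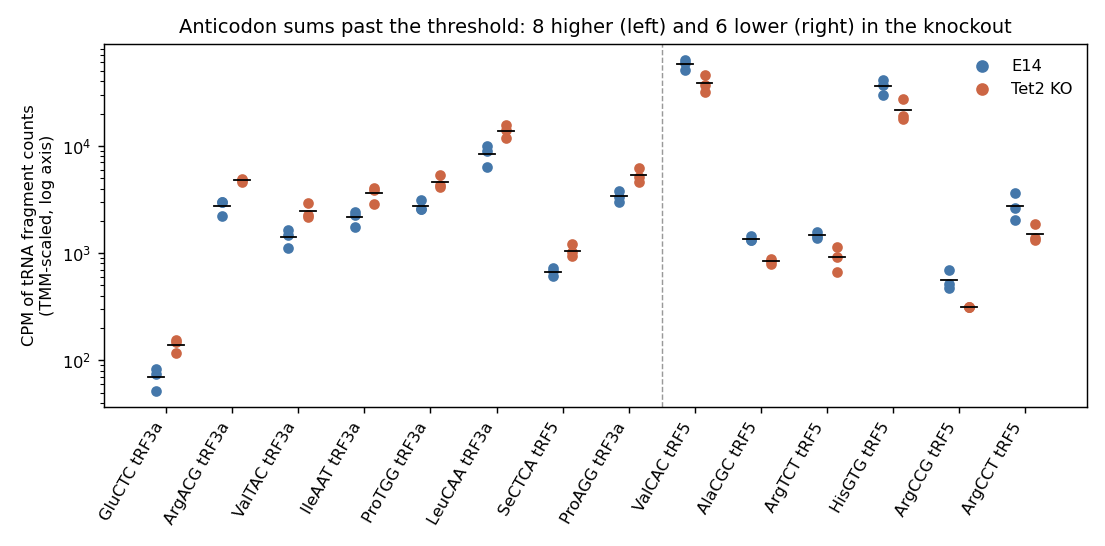
Levels (CPM of tRNA fragment counts, TMM-scaled, log axis) of the 14 called anticodon sums in the 3 E14 and 3 knockout libraries, with black lines at the means. In each of the 14 the libraries of the groups do not overlap, from GluCTC tRF3a near the bottom of the axis to ValCAC tRF5 at the top. Among all 123 tested sums, 18 were higher and 15 lower in the knockout with no overlap.

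The tRF5 sums that fell were those of HisGTG, ValCAC, AlaCGC and the arginine anticodons ArgCCG, ArgCCT and ArgTCT. HisGTG, the only histidine tRNA with tested fragments here and one that can carry queuosine at its wobble position, had tRF5 levels of 30106.3, 41312.2 and 37157.1 CPM in E14 and 19056.9, 17995.4 and 27268.9 CPM in the knockout. The groups did not overlap, and knockout replicate 3 stood nearest to E14 (log2 change -0.76, SE 0.20, adjusted p = 0.0321). ValCAC was one of the most abundant tRF5 sources, with 51139.1, 62566.6 and 59766.3 CPM in E14 and 36759.7, 32043.0 and 45860.1 CPM in the knockout. Again knockout replicate 3 was the highest of its group, and the log2 change was -0.60 (SE 0.18, adjusted p = 0.0494).

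Of the 5 arginine tRF5 sums tested, 3 fell and none rose, beside 6 that fell and 1 that rose among all 45 tRF5 sums. Each of these 3 stayed past the threshold in 6 of 13 alternative runs. ArgCCT tRF5 went from 2052.5, 3648.4 and 2607.1 CPM in E14 to 1311.9, 1369.9 and 1881.8 CPM in the knockout (log2 change -0.87, SE 0.24, adjusted p = 0.0321). ArgCCG tRF5 went from 477.2, 694.5 and 511.0 CPM to 316.1, 311.3 and 312.5 CPM (log2 change -0.84, SE 0.22, adjusted p = 0.0321). In both, all knockout libraries were below all E14 libraries, with little spread among the knockout libraries for ArgCCG. ArgTCT tRF5 went from 1386.0, 1447.6 and 1585.1 CPM to 669.1, 915.3 and 1150.4 CPM (log2 change -0.70, SE 0.21, adjusted p = 0.0494). The alanine anticodon AlaCGC had 1310.3, 1322.1 and 1439.1 CPM in E14 and 843.0, 797.0 and 887.7 CPM in the knockout. These groups were tight and well separated (log2 change -0.69, SE 0.18, adjusted p = 0.0321).

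SeCTCA, the selenocysteine tRNA, was the 1 anticodon whose tRF5 sum was called higher. Its levels were 605.9, 686.2 and 719.6 CPM in E14 and 1027.4, 934.0 and 1207.2 CPM in the knockout, with no overlap (log2 change 0.66, SE 0.20, adjusted p = 0.0494). The most abundant tRF5 sources gave lower values without passing the test, apart from ValCAC. GlyGCC, a substrate of the tRNA methyltransferase TRDMT1 and the source of 35.6% of tRF5 counts in E14 and 38.2% in the knockout, had a log2 change of -0.28 (SE 0.22, adjusted p = 0.453). GluCTC, with 20.7% and 19.5% of tRF5 counts, had a log2 change of -0.46 (SE 0.19, adjusted p = 0.128). GluTTC was at -0.56 (SE 0.20, adjusted p = 0.109) and LysCTT at -0.13 (SE 0.18, adjusted p = 0.696). The raw share of GlyGCC within tRF5 was thus larger in the knockout while its TMM-scaled level was lower. The 5 most abundant tRF3b sums, GluTTC, AlaTGC, ValTAC, ArgACG and LeuCAA, had log2 changes between -0.10 and 0.15, none past the threshold.

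These calls lay near the threshold. Without E14 replicate 3, or without knockout replicate 1, none of the 8 higher and 6 lower sums was called. None was called either with no count filter or with a replicate block. Without E14 replicate 2 there were 7 higher and 0 lower, without knockout replicate 2 there were 5 and 0, without E14 replicate 1 there were 3 and 10, and without knockout replicate 3 there were 12 and 13. All 14 sums kept their direction in every alternative run. Scaling by library size alone moved the median of all sums to 0.24 and gave 15 higher and 4 lower. By kind, the median moved to 0.02 for tRF5 and to 0.37 for tRF3a. The tRF3a calls were then 12 higher and 0 lower, and the tRF5 calls 3 and 4, with AlaCGC, ArgCCG, ArgCCT and ArgTCT no longer called. Each kind was also scaled and fitted alone, an alternative chosen after seeing the data. That scaling removes a shift shared by a whole kind, and the medians were -0.09 for tRF5 and -0.09 for tRF3a. This fit therefore could not show the split by kind and does not test it. Here tRF5 had 5 higher and 8 lower, and tRF3a had 3 of each. In that fit ArgACG, ProTGG and ValTAC tRF3a, SeCTCA tRF5 and all 6 lower tRF5 sums stayed called, while LeuCAA, IleAAT, ProAGG and GluCTC tRF3a did not.

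For single tRNA genes, 498 rows were tested, and 48 rose (9.64%) and 27 fell (5.42%) in the knockout. The rows that rose came from 15 anticodons and those that fell from 9. At an unadjusted p under 0.05, 73 rows were higher and 53 lower. Of 204 tRF3a rows, 42 rose and 0 fell. Of 187 tRF5 rows, 6 rose and 27 fell, and of 107 tRF3b rows none passed the test. The rows that rose as tRF3a were 8 of IleAAT, 5 each of ArgACG, ProAGG and ProTGG, 4 of LeuCAA, 3 each of LeuCAG, ThrTGT and ValTAC, 2 each of ProCGG and TrpCCA, and 1 each of SerGGA and ThrCGT. The tRF5 rows that fell were led by HisGTG with 8 and ValCAC with 6. Those that rose were 2 of ProAGG and 1 each of AlaCGC, AsnGTT, ProCGG and SeCTCA. Of these, the AlaCGC and AsnGTT rows passed the count filter only through the knockout libraries, where they were high. With DESeq2 size factors the split was 39 higher and 40 lower, and with library size alone it was 56 and 27. The higher rows numbered 16 without knockout replicate 1, 26 without knockout replicate 2 and 30 without E14 replicate 3. The lower rows numbered 4, 10, 9 and 11 without E14 replicates 2 and 3 and knockout replicates 1 and 2, and 52 without E14 replicate 1.

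Rows of genes with the same anticodon often held the same counts. Over the 12 small RNA libraries of both experiments, among rows with a mean of at least 20 counts, 64.5% of 456 same-anticodon pairs of tRF3a rows agreed within counting noise (chi-square p over 0.05), against 1.41% of 14422 pairs from different anticodons. All 36 IleAAT pairs agreed in this way, also over the 6 libraries of experiment 2 alone. All 6 LeuCAA pairs agreed over the 12 libraries, and 4 of 6 over those of experiment 2. For tRF5 rows the share was 28.9% of 561 same-anticodon pairs. How the authors assigned reads that fit several genes is not given in the sources used here. Such rows cannot be counted as separate observations, and values of single genes are uncertain.

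Over the 12 libraries, the tRF3a counts of the 4 LeuCAA genes agreed within counting noise with those of 3 leucine CAG genes. The gene chr11.tRNA1911-LeuCAA had 187, 264 and 252 counts in E14 and 801, 457 and 543 in the knockout (log2 change 0.98, SE 0.17, adjusted p = 7.71e-06). The gene chr8.tRNA416-LeuCAG had 198, 260 and 254 counts in E14 and 744, 456 and 432 in the knockout (log2 change 0.82, SE 0.18, adjusted p = 0.00034). Knockout replicate 1 was the highest library in both, and E14 replicate 1 the lowest. Of 40 pairs of a LeuCAA and a LeuCAG gene, 12 agreed within counting noise, and these were the 4 LeuCAA genes with chr8.tRNA416, chr8.tRNA1013 and chr1.tRNA698. Over the 6 libraries of experiment 2 it was 10 of 40, since chr11.tRNA1911-LeuCAA differed from chr8.tRNA416 and chr1.tRNA698. The other 7 LeuCAG genes were much lower, at 59.4 to 65.8 counts per library on average against 437.6 to 450.8, and had log2 changes of 0.06 to 0.61 without passing the test. Apart from that gene, the 3′ fragments counted for LeuCAA and for these 3 LeuCAG genes could not be told apart by their counts in experiment 2. The 4 LeuCAA rows stayed past the threshold in all 12 alternatives run, with adjusted p-values up to 0.0263. The proline genes were alike in this respect, as 29 of 30 pairs of a ProAGG and a ProTGG gene and 18 of 18 pairs of a ProAGG and a ProCGG gene agreed within counting noise in tRF3a over the 12 libraries.

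Other rows at the head of the list were chr13.tRNA985-ArgACG tRF3a, with 56, 61 and 55 counts in E14 and 181, 145 and 128 in the knockout (log2 change 1.04), and chr13.tRNA969-ProAGG tRF3a, with 66, 70 and 47 against 203, 140 and 130 (log2 change 1.02). In both, each knockout library had more than each E14 library. The lower rows were led by chr3.tRNA749-HisGTG tRF5, with 406, 468 and 354 counts in E14 and 314, 283 and 325 in the knockout (log2 change -0.75, SE 0.18, adjusted p = 0.00105). Of the 10 tested HisGTG genes 8 fell, and all 10 had log2 changes between -0.75 and -0.46. The ValCAC genes were also alike, with 6 of 9 lower and log2 changes from -0.58 to -0.23 over the 9. Without E14 replicate 2, 5 of the 6 HisGTG rows and both ValCAC rows among the 10 lower rows with the smallest p lost their call.

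**Figure D4:**
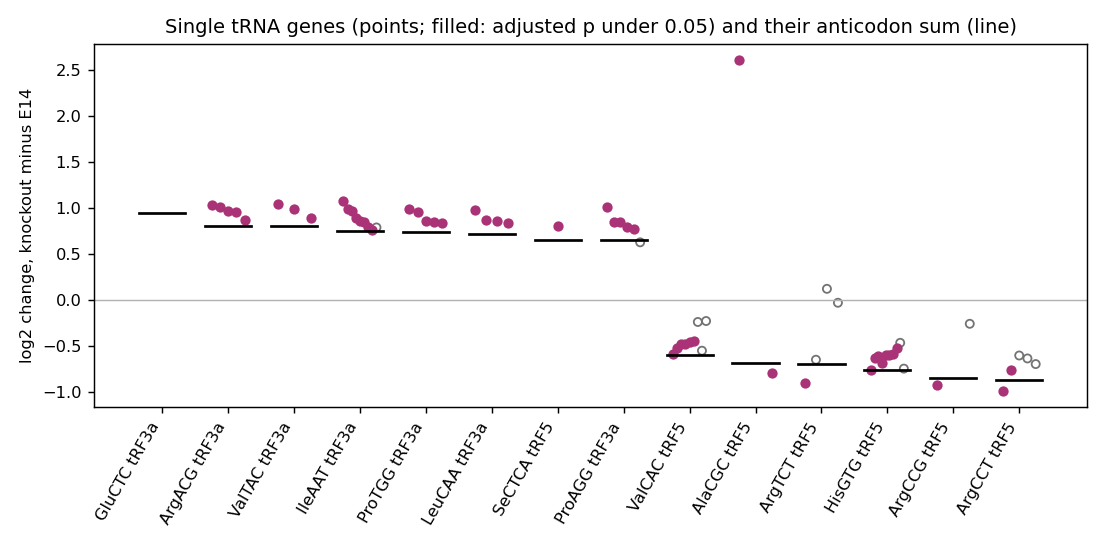
Log2 change, knockout minus E14 (vertical axis), of single tRNA genes (points, filled where adjusted p was under 0.05) for the 14 called anticodon sums (horizontal axis), with a line at the change of the sum. Single genes lie far from their line for AlaCGC (1 gene at 2.60), ArgTCT (genes from -0.90 to 0.12 against a sum of -0.70) and ArgCCG (1 gene at -0.26 against -0.84), and most tRF3a genes lie slightly above theirs, where rows and sums had separate scaling factors.

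The tested AlaCGC genes gave values of opposite sign in tRF5. The row chrX.tRNA636-AlaCGC tRF5 had 1, 1 and 3 counts in E14 and 14, 14 and 13 in the knockout (log2 change 2.60, SE 0.57). With so few E14 counts, this row passed the count filter only through the knockout libraries, where it was high. Its call with the filter therefore gives no support. In the fit with no count filter its adjusted p was 0.00306. The summed counts of 5 and 41 gave a ratio of 6.42 with a 95% counting interval of 2.54 to 20.8. That interval leaves out the spread between libraries. Both values are of a row picked by its call, so they describe it and give no further support. The gene chr4.tRNA622-AlaCGC had 165, 149 and 125 counts in E14 and 119, 104 and 100 in the knockout, and fell (log2 change -0.79, SE 0.22, adjusted p = 0.00655). The sum over the anticodon fell, as did this more abundant gene.

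The ratio of kinds within an anticodon does not depend on how libraries are scaled. The log2 odds of a kind against the other kinds of the same anticodon were tested with limma for 120 pairs of anticodon and kind, of which 2 were called higher (1.67%) and 1 lower (0.833%). Before adjustment, p was under 0.05 for 16 higher and 16 lower pairs. All 3 calls were of the glutamate tRNAs. The tRF3a share of GluCTC counts was 0.0502%, 0.0356% and 0.0260% in E14 and 0.0828%, 0.125% and 0.0946% in the knockout (log2 odds 1.41, SE 0.28, adjusted p = 0.0328). These shares rest on 11, 9 and 5 tRF3a counts in E14 and 22, 25 and 21 in the knockout. GluCTC tRF3a met the minimum mean count of the odds test only through the knockout libraries, where it was high. Its odds call therefore gives no support. The tRF3a share of GluTTC counts was 0.325%, 0.313% and 0.142% in E14 and 0.619%, 0.818% and 0.539% in the knockout (log2 odds 1.40, SE 0.32, adjusted p = 0.0492). No library of either group overlapped with the other. The tRF5 share of GluCTC fell from a mean of 99.9% to 99.7% (log2 odds -1.01, SE 0.24, adjusted p = 0.0492). Nearly all fragments of these tRNAs were thus tRF5 in both groups. The GluCTC tRF5 odds are against the tRF3a and tRF3b counts, so that call is not separate from the tRF3a call. ArgTCT, with a tRF3a share of 19.2%, 24.1% and 18.5% in E14 and 46.9%, 38.9% and 27.9% in the knockout, just missed the threshold (log2 odds 1.22, adjusted p = 0.0521). None of the 3 calls was made without E14 replicate 3, without knockout replicate 1 or without knockout replicate 2.

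Lists of anticodons that share a modification, a structure or a known role were set beside all 123 sums, of which 8 rose and 6 fell with a median of -0.02. None of the 8 tested sums of the TRDMT1 substrates AspGTC, GlyGCC and ValAAC passed the test, and their median log2 change was -0.13. Of the 3 LeuCAA sums, tRF3a rose, and the tRF5 and tRF3b sums had log2 changes of 0.34 and 0.09 without passing. LeuCAG, not on this list, had a tRF3a log2 change of 0.54 (adjusted p = 0.109) and no overlap between the groups. Its more abundant genes had counts close to those of the LeuCAA genes, as given above. None of the 5 sums of the NSUN6 substrates CysGCA and ThrTGT passed (median 0.18). ThrTGT tRF3a was at 6680.2, 7514.3 and 6538.7 CPM in E14 and at 10168.6, 8947.9 and 8535.7 CPM in the knockout, and did not overlap (log2 change 0.42, adjusted p = 0.128). Among the 8 tested sums of anticodons that carry queuosine, 1 fell, HisGTG tRF5, with a median of -0.15 over the list. Among the 11 alanine and cysteine sums, whose tRNAs begin with a run of guanines, 1 fell, AlaCGC tRF5 (median -0.19).

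The retroviral primer tRNAs of lysine, phenylalanine and proline had 2 of 15 sums higher and none lower, with a median log2 change of 0.21. Their 5 tRF3a sums were all above 0, from 0.08 for LysTTT to 0.74 for ProTGG, and the 2 that rose were both of proline. In experiment 2, 30 of 30 ProAGG and ProTGG gene pairs agreed within counting noise in tRF3a. So did 18 of 18 ProAGG and ProCGG pairs, and the proline sums are thus not separate observations. Among all 43 tRF3a sums 7 rose, 31 were above 0 and the median was 0.12. PheGAA tRF3a was at 0.35 and did not pass. The list made up 3.63%, 3.64% and 3.75% of the counts in E14 and 4.71%, 4.68% and 4.57% in the knockout. Among anticodons known as abundant sources of 5′ fragments, 2 of 8 tRF5 sums fell, HisGTG and ValCAC, and all 8 had negative values with a median of -0.46. Among all 45 tRF5 sums 6 fell, 29 were negative and the median was -0.25. These signs depend on the scaling, and with library size alone the median of the tRF5 sums was 0.02. As raw shares of all counts, LysCTT tRF5 went from 6.24% in E14 to 6.88% in the knockout and GlyCCC from 2.76% to 2.81%. GlyGCC was at 29.9% in both, while the raw shares of GluCTC, GluTTC, ValCAC, ValAAC and HisGTG tRF5 fell. This list held 80.9%, 84.4% and 83.4% of the counts in E14 and 77.9%, 76.4% and 80.2% in the knockout. Over all kinds it had 1 of 21 sums higher, 2 lower and a median of -0.10. The serine and leucine tRNAs, which have a long variable arm, had 1 of 25 sums higher, LeuCAA tRF3a, none lower and a median of 0.02. None of the 3 methionine sums passed (median -0.18). Of the selenocysteine and suppressor sums 1 was tested, SeCTCA tRF5, which rose. No row of the table is named as mitochondrial.

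Experiment 1 compared another Tet2 knockout set with wild-type cells, with 3 libraries each and the same medium. It used another library kit, so kit, control line and knockout set differ together between the experiments and cannot be told apart. No library is shared. In experiment 1 the share of tRF5 went from 75.5% ± 8.53 to 51.5% ± 2.17 (SD, n = 3), and that of tRF3a from 13.8% ± 5.18 to 28.3% ± 3.01. Both had an exact permutation p of 0.1. The differences were -24.0 and 14.5 percentage points, beside -5.54 and 5.22 in experiment 2. The difference between the experiments was tested on anticodon sums in 1 fit over the 12 libraries. Of 137 sums tested, 21 had a higher change in experiment 2 (15.3%) and 11 a lower one (8.03%). The 21 became 10 without wild-type replicate 2 and 11, 9 and 8 without the knockout replicates 1, 2 and 3 of experiment 1, while the 11 became 38, 34, 35 and 27 in the same order. The 11 also became 5 without wild-type replicate 3, 3, 7 and 5 without E14 replicates 1, 2 and 3, and 6 and 4 without knockout replicates 1 and 3 of experiment 2.

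The sums that rose or fell in experiment 2 had unequal counterparts in experiment 1. Of the 14 called sums, 8 had the same sign in experiment 1 and 6 the opposite sign. Of the 8 with the same sign, 6 were also called in experiment 1, and of the 6 with the opposite sign, 1 was. ProTGG and ProAGG, both among those 8, are not separate observations. ArgACG tRF3a had a log2 change of -0.69 in experiment 1 without passing there (adjusted p = 0.123), and the difference of 1.55 passed the test (SE 0.36, adjusted p = 0.00524). IleAAT tRF3a also had a negative value in experiment 1, -0.75 (adjusted p = 0.261), with a called difference of 1.54 (adjusted p = 0.0368). ProTGG tRF3a was at 0.76 in experiment 1 (adjusted p = 0.00222), with a difference of 0.04 ± 0.27 (SE). LeuCAA tRF3a was at 1.32 in experiment 1 (adjusted p = 6.87e-05), with a difference of -0.53 that did not pass (adjusted p = 0.177). HisGTG tRF5 was at -1.60 there without passing (adjusted p = 0.0739), with a difference of 0.93 that did not pass (adjusted p = 0.259). The others of the same sign were ProAGG and ValTAC tRF3a and AlaCGC, ArgTCT and ValCAC tRF5. In experiment 1, ProAGG was at 0.71 (adjusted p = 0.00492) and ValTAC at 0.26 without passing (adjusted p = 0.400). AlaCGC was at -0.57 (adjusted p = 0.0495), ArgTCT at -0.55 (adjusted p = 0.0132) and ValCAC at -1.19 (adjusted p = 0.00944). The others of opposite sign were GluCTC tRF3a and SeCTCA, ArgCCG and ArgCCT tRF5. GluCTC tRF3a was at -2.15 in experiment 1 (adjusted p = 0.000322) with a called difference of 3.16. SeCTCA tRF5 was at -1.71 there with a difference of 2.45 that did not pass (adjusted p = 0.0549). ArgCCG and ArgCCT tRF5 were both at 0.08 there (SE 0.20 and 0.29). Their differences of -0.84 and -0.88 did not pass.

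**Figure D5:**
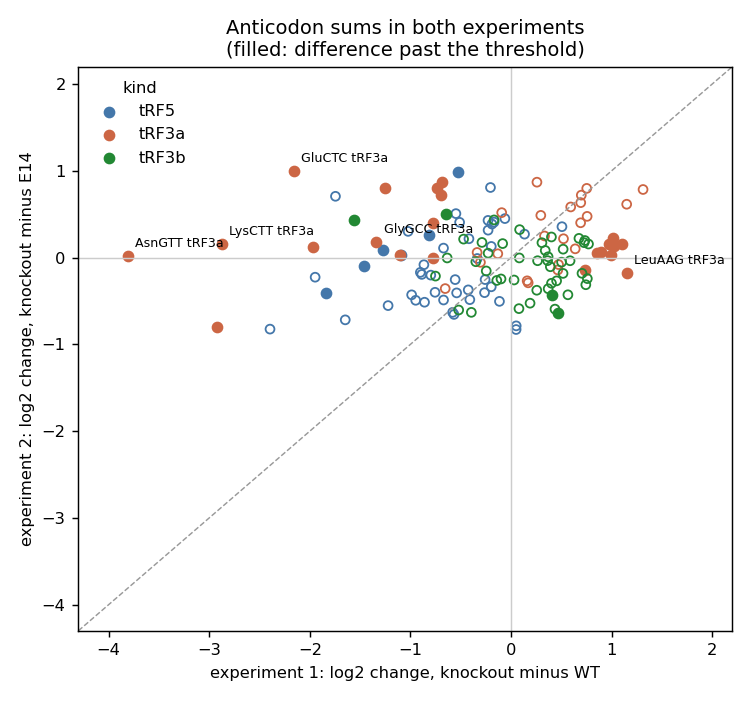
Log2 change of each anticodon sum in experiment 1 (knockout minus wild type, horizontal axis) and in experiment 2 (knockout minus E14, vertical axis), coloured by kind and filled where the difference passed the threshold, with a dashed line of equality. The points farthest to the left are tRF3a sums such as AsnGTT, at -3.81 in experiment 1 and 0.01 in experiment 2.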

How the data were processed

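Small RNA of 14 to 38 nt was sequenced from mouse embryonic stem cells. The authors deposited raw counts per tRNA gene and fragment kind. The submitters' processing notes name UMI-tools, cutadapt, STAR 2.5.3a, Bowtie2 2.2.6 and the mm10 build. How these were used for the tRNA fragments, how reads that fit several genes were counted and how kinds were defined are not given in the sources used here. Every sample column matched 1 sample's label.

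Counts were tested as deposited, by row and summed by anticodon and kind, in R 4.3.3 with edgeR 4.0.16 (TMM scaling, filterByExpr, robust quasi-likelihood test, Benjamini-Hochberg adjustment over all features tested, threshold 0.05). Standard errors are the log2 change divided by the square root of F. Kind shares were compared by exact two-sided permutation, and kind odds within an anticodon with limma 3.58.1 (pseudocount 0.5, minimum mean of 10 counts). The filter keeps features that are high in either group, so a feature present in 1 group can pass only through it. Intervals cover counting error only, since the use of molecular identifiers in this table is not stated. The scripts were tested on simulated data.

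Named features were the 10 rows per direction and 12 sums per direction with the smallest p among called, non-overlapping features, 6 odds per direction, the 5 most abundant sums per kind, up to 4 sums per list and 5 differences between experiments per direction. Features named outside this rule were chosen after their values were seen. The members and lists were chosen with earlier results of these data known. Replicate numbers gave no sign of pairing the libraries, which cannot exclude it, and no block was used in the main fits. Alternatives were DESeq2 1.42.0 (size factors and Wald test), library size alone, no count filter, a replicate block, omission of each library or of the most counted feature, other settings for the odds, and each kind scaled alone.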

Additional observations from a re-analysis of the deposited data

Results flagged for a closer look

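The change in experiment 2 differed from that in experiment 1, by a test of the difference over the 12 libraries with edgeR's quasi-likelihood test for the sums named here, the 5 with the smallest p in each direction. AsnGTT tRF3a differed by 3.82 on the log2 scale (0.01 in experiment 2 and -3.81 in experiment 1), GluCTC tRF3a by 3.16 (1.00 and -2.16) and LysCTT tRF3a by 3.03 (0.16 and -2.87). GlyGCC tRF3a differed by 1.52 (0.18 and -1.34), and AsnGTT tRF5 by 1.36 (0.09 and -1.27). In the controls, LysCTT tRF3a had 447.7 ± 109.8 CPM in wild type and 434.2 ± 125.9 CPM in E14, while AsnGTT tRF5 had 1916 ± 253 and 874 ± 167 CPM (SD, n = 3).

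In the other direction 11 sums were called, and the 5 with the smallest p were as follows. LeuAAG tRF3a differed by -1.33 (-0.18 in experiment 2 and 1.15 in experiment 1), LeuTAG tRF3a by -0.96 (0.03 and 1.00), SerTGA tRF3a by -0.95 (0.15 and 1.10), SerCGA tRF3a by -0.89 (0.14 and 1.03) and SerGCT tRF3b by -1.10 (-0.64 and 0.46). SerGCT tRF3b stood at 3813 ± 359 CPM in wild type and 373 ± 124 CPM in E14 (SD, n = 3). Library kit, control line and knockout set cannot be told apart in these differences.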

How the results depend on the processing

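Replicate numbers were the only link between the groups. The correlations of the deviations of libraries with the same number were -0.03, -0.55 and 0.18, and not every library correlated best with its own number. These values gave no sign of pairing, but with 3 libraries per group they cannot exclude it. With a replicate block, 0 sums were called higher and 0 lower, 43 rows were higher and 18 lower, 3 kind odds were higher and 2 lower, and the sums that differed between experiments numbered 11 higher and 2 lower. With no count filter, 0 sums were called in either direction, 17 tRF5 rows were lower and 6 sums were lower in the difference between experiments. DESeq2's Wald test called 48 rows lower, all 48 of them tRF5, and 25 differences lower, and DESeq2 size factors 24. Library size alone gave 15 sums higher and 8 and 6 differences higher and lower. Each kind scaled alone, added after seeing the data, gave 11 sums lower. Without the most counted feature 5 differences were lower. For kind odds, a pseudocount of 5 gave 4 higher and 2 lower, and minimum means of 50 counts and 1 count each gave 0 and 0. Leaving out each library in turn gave 16 to 51 rows higher and 4 to 52 lower, 14 to 48 tRF3a rows higher, 3 to 51 tRF5 rows lower, 0 to 12 sums higher and 0 to 13 lower, 8 to 22 differences higher and 3 to 38 lower, 0 to 3 kind odds higher and 0 to 3 lower. The tRF3b share difference ranged from -0.017 (without knockout replicate 2, a reversal) to 0.691 percentage points. Without a wild-type or knockout library of experiment 1, the lower differences reached 38 (wild-type replicate 2). The cause of these changes was not tested. Of the 14 called sums none changed direction.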

Other observations

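The same tRNA genes are rows of the study's other tables, of TET2 crosslinking and immunoprecipitation (CLIP, 4 libraries and 4 inputs) and of immunoprecipitation with an antibody against 5-hydroxymethylcytosine (hm5C RIP, 2 libraries and 2 inputs). These values are a description with no test, as CPM of all counts in a library, and each assay was scaled by library size. Summed over its genes, LeuCAA stood at 65.4 ± 11.2 CPM in the hm5C RIP and 7.48 ± 1.61 CPM in its input (SD, n = 2), a ratio of 8.75. This was the highest ratio of 45 anticodons with at least 20 counts, whose median ratio was 1.08. In the TET2 CLIP, LeuCAA stood at 172.9 ± 57.6 CPM against 26.3 ± 10.9 CPM in the input (SD, n = 4), a ratio of 6.57 that ranked 22 of 43 and equalled the median. ArgCCT, whose tRF5 fragments fell, had the highest CLIP ratio, 31.8, and the second lowest RIP ratio, 0.312. HisGTG ranked 12 in the CLIP with a ratio of 10.8 and 31 in the RIP with 0.882.

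The gene chr3.tRNA298-AsnGTT, chosen after its values were seen, had 5, 1 and 3 tRF5 counts in E14 and 15, 12 and 13 in the knockout. It passed the count filter only through the knockout libraries, so its values are given with no test. The summed counts of 9 and 40 gave a ratio of 3.48 with a 95% counting interval of 1.66 to 8.16. This interval covers neither the spread between libraries nor the choice of the row, and is not a test. The sum of all AsnGTT tRF5 fragments had a log2 change of 0.04.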
